A study of Mus musculus with 17 samples.

Results

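The cardiac natriuretic peptide system was followed through 7 genes, all chosen by symbol: the ligand genes Nppa and Nppb, the processing proteases Corin and Furin, and the receptors Npr1, Npr2 and Npr3. All 7 were among the 21798 genes listed, and all 7 were among the 16218 genes kept by a filter on low values (CPM, counts scaled to a common library total, of at least 0.5 in at least 3 libraries). Expression was measured by bulk RNA sequencing of polyadenylated RNA from the apex of the left ventricle of male C57Bl6/J mice, aged 7 to 8 weeks at surgery and killed 3 weeks later. The 17 libraries, each from a separate mouse, comprised 5 Sham Veh (S5, S6, S13, S19 and S20), 3 Sham 29P (S4, S14 and S15), 3 TAC Veh (S2, S12 and S16) and 6 TAC 29P (S1, S3, S8, S9, S11 and S18). TAC is transverse aortic constriction, which raises the pressure load on the left ventricle, and Sham mice had the operation without the constriction. 29P is an orally given mimetic of the RGD integrin-binding motif, dosed at 50 µg/kg for 6 doses, and Veh mice were given the same volume of saline. No genetic alteration was involved. According to the study's account, libraries were dropped before deposit, among them a TAC Veh library that grouped with the Sham animals, so the TAC Veh libraries analysed here were kept in part because they lay apart from Sham.

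Nppa encodes the precursor of atrial natriuretic peptide (ANP) and Nppb that of brain natriuretic peptide (BNP), hormones that promote salt excretion and relax vessels. In the adult heart Nppa is transcribed mainly in the atria, and both genes are textbook markers of a loaded or failing ventricle. Corin is a membrane serine protease of cardiomyocytes that cuts pro-ANP, and Furin is a proprotein convertase able to cut pro-BNP. Npr1 encodes the guanylyl cyclase receptor that answers ANP and BNP with cyclic GMP, Npr2 the related receptor for C-type natriuretic peptide, and Npr3 a receptor without a cyclase domain that removes the peptides from the circulation.

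Libraries S18, S19 and S20 stood apart from the other 14. Their summed CPM over 8 atrial myocyte markers was 1720 to 2830, against 29.9 to 101 elsewhere. Sln, Myl7 and Myl4, the defining atrial sarcomere and calcium-handling genes, were between 162 and 1210 CPM in these 3 libraries and at most 0.626, 1.0 and 4.43 CPM in the other 14. Bmp10, a growth factor of atrial myocytes, reached 514 CPM in S18 and did not exceed 0.224 CPM in any other library. In the other 14 libraries the summed list came mainly from Kcnj3, at 16.4 to 92.8 CPM, and Stard10, at 5.22 to 17.9 CPM. The ventricular myocyte list (Myl2, Myl3, Irx4, Mylk3) summed to 7340 to 9030 CPM in S18 to S20 and 7010 to 10100 CPM in the others, so the labelled tissue was present throughout. S19 and S20 are Sham Veh and S18 is TAC 29P, and each result below was computed with and without them. Values of tests given without S18, or without S19 and S20, come from the fit that left out all 3. The animal numbers in the column headers fall into 4 runs (S1 to S11, S12 to S14, S15 and S16, and S18 to S20), and that of S18 to S20 holds no TAC Veh and no Sham 29P library. What these header runs stand for is not stated.

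Depth, estimated from what 1 read was worth in each library, was 14200000 to 23800000 reads. Mitochondrial transcripts took 23.6% to 29.4% of the CPM in TAC libraries and 29.1% to 40% in Sham libraries. The middle gene of all those tested had a log2 fold change of 0.346 for TAC Veh against Sham Veh and 0.373 for TAC 29P against Sham 29P. With TMM factors, which scale libraries on a trimmed mean of log ratios, it had 0.009 and 0.018, and with a total that left out mitochondrial transcripts 0.191 and 0.195. Differences of about 0.35 on the log2 scale are therefore at the level of the typical gene. Scaling also changed the balance of calls over all genes, from 3648 higher and 310 lower under vehicle to 627 and 932 with TMM factors, and from 5097 and 181 under 29P to 926 and 810. S6 and S14, both Sham, had the highest mitochondrial shares (38.8% and 40%) and the most genes at 0 (2729 and 3538, against 1395 to 2410 elsewhere), and S14 was the shallowest library. TMM values are given for each member.

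Nppb and Nppa are neighbours on chromosome 4, both on the plus strand (GENCODE vM21, mm10). Nppb spans chr4:147985788-147987205 and Nppa chr4:148000722-148002079. Their promoters are shown because these were the members that moved most between Sham and TAC. RefSeq (GRCm38.p6) gave a promoter window, 250 bases before to 50 after the annotated start, for all 7 members. Below, capitals mark matches on either strand to any of 5 motifs. The MCAT element, bound by TEAD factors, was searched as CATTCC. The site of GATA factors was searched as GATAA and the NKE site of Nkx2-5 as AAGTG. The T-box motif was searched as TCACAC, and the box of the basal machinery as TATAAA. The CArG box, bound by serum response factor, was searched as well. These motifs were picked after the sequences had been read, and no match overlapped another.
Nppb, chr4:147985650-147985949: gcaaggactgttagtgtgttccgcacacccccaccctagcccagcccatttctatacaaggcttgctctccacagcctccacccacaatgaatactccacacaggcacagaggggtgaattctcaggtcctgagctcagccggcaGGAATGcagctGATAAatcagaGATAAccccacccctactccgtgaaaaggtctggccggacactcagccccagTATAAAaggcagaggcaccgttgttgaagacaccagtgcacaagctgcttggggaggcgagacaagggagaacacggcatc
Nppa, chr4:148000472-148000771: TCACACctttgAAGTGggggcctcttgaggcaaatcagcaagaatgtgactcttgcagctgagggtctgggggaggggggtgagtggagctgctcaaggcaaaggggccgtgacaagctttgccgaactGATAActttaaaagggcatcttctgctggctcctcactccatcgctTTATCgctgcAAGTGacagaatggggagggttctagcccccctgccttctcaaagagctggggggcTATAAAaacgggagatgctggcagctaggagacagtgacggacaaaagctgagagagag

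The Nppb window held an MCAT match on the minus strand at -105 from the RefSeq start, GATA matches at -94 and -83 and a TATA match at -31. That RefSeq start lies inside the gene as vM21 draws it. The Nppa window held a T-box match at -250, NKE matches at -239 and -65, GATA matches at -121 and on the minus strand at -75, and a TATA match at -9. Of 32851 mouse promoter windows of the same length, 14.7% held MCAT, 25.4% GATA, 46.4% NKE, 14.5% T-box and 13.6% TATA. CArG matched in 1.63% of windows and in neither of these. Among the other 5 members, only Furin had any match, with 5 NKE matches and 1 TATA match in 1 of its 2 windows.

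**Figure D1:**
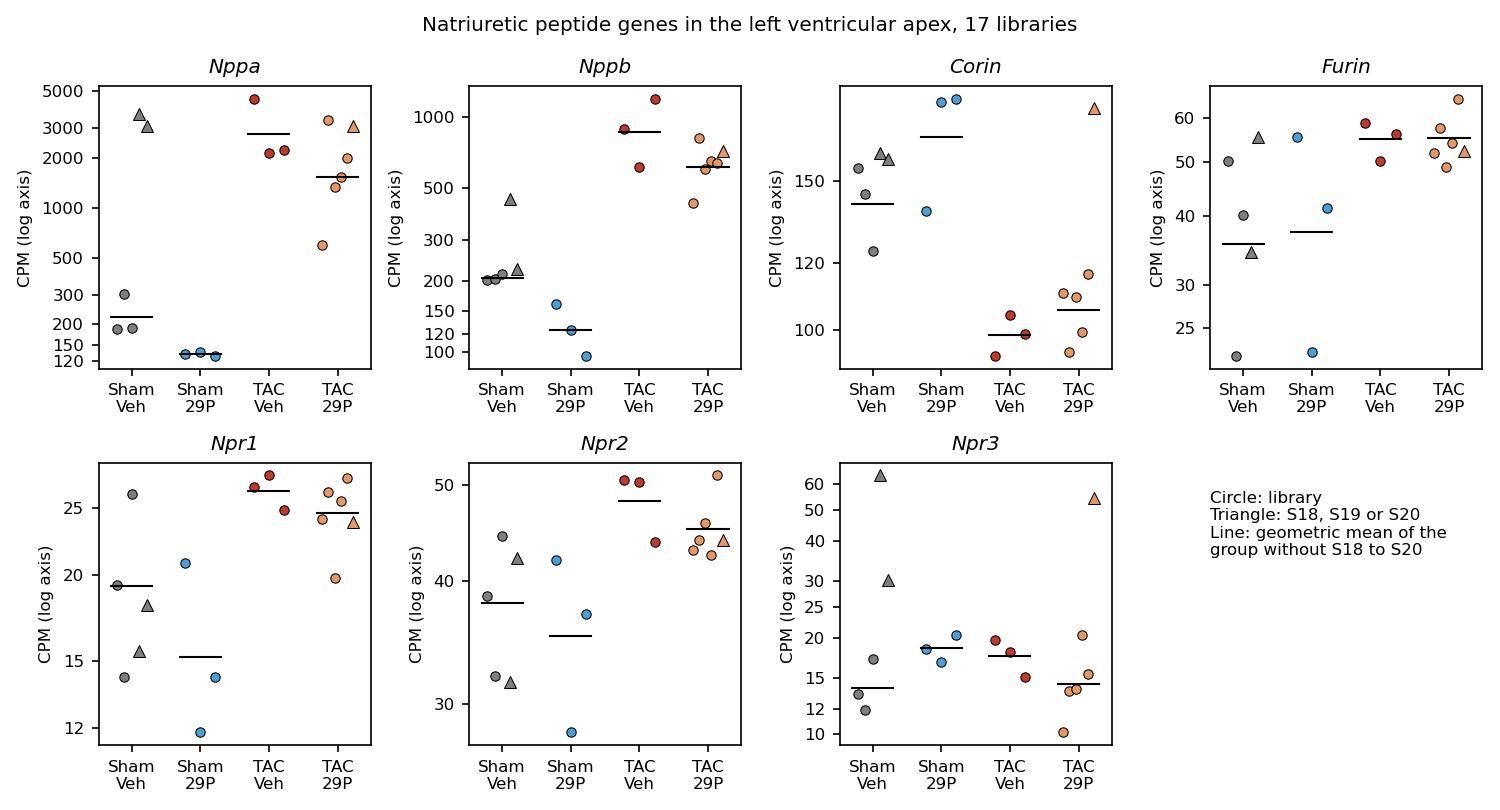
CPM (log axis) of the 7 genes in each of the 17 libraries by group, with triangles for S18, S19 and S20 and a line at the geometric mean of the group without them. Nppa in S19 and S20, at 3670 and 3101 CPM, lies within the TAC range although both mice were Sham, whereas Nppa, Nppb and Corin each separate by surgery in the circles. How many of all genes separate in this way was not counted.

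The first question was what pressure overload did to these genes in mice given vehicle. With all 17 libraries, 3 of the 7 members were called in TAC Veh against Sham Veh by limma at a Benjamini-Hochberg adjusted p of 0.05 or less over all genes. Nppb and Npr1 were higher and Corin lower, where 24.4% of all genes were called. That share was 9.61% with TMM factors and 2.97% without S2, 13.8% without S16 and 15.3% without S6. Without S18 to S20 the called members were again 3 in number, Nppa, Nppb and Corin, against 14.7% of all genes. In mice given 29P, TAC against Sham called 4 members, Nppa, Nppb and Npr1 higher and Corin lower, against 32.5% of all genes. The same 4 were called there without S18, against 32.4%. That share was 10.7% with TMM factors, 4.35% with the header runs as a covariate, and 6.69% without S14, 20.4% without S3 and 21.6% without S15. The TAC groups are compared with separate Sham groups, so the fold changes for vehicle and for 29P share no library. Their standard errors and p-values are not independent, because the fit takes the spread from all 17 libraries.

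Nppb gave the steadiest separation. Its CPM in Sham Veh was 202 in S5, 205 in S6, 215 in S13, 447 in S19 and 226 in S20. In TAC Veh it was 883 in S2, 610 in S12 and 1189 in S16. Every TAC Veh library lay above every Sham Veh library, and the atrial-marker library S19 was the highest of the Sham values. The log2 fold change was 1.81 (SE 0.26), a 3.51-fold rise, with a limma adjusted p of 0.00101. The exact two-sided permutation test over the 8 libraries gave p = 0.0179, the smallest it allows. Both tests are conditional on the choice of TAC Veh libraries made before deposit.

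In Sham 29P, Nppb was 160 CPM in S4, 124 in S14 and 96.8 in S15. TAC 29P ran from 428 CPM in S1 through a median of 641 to 814 in S3, with no overlap with Sham 29P. That difference was 2.34 on the log2 scale (SE 0.26), or 5.06-fold, with a limma adjusted p of 0.000139. Leaving out S18 to S20 gave 2.06 (SE 0.24) under vehicle and 2.3 (SE 0.22) under 29P. With TMM factors the rises were 1.47 and 1.98, both still called.

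Nppa showed the largest TAC values of the 7 but depended on S19 and S20. In Sham Veh it was 187 CPM in S5, 304 in S6 and 191 in S13, and 3670 in S19 and 3101 in S20. TAC Veh gave 4498 CPM in S2, 2121 in S12 and 2224 in S16. S19 and S20 thus exceeded 2 of the 3 TAC Veh libraries, and the groups overlapped. Over all libraries the log2 fold change of 2.07 (SE 0.85) was not called, at a limma adjusted p of 0.0794, and neither was 1.74 with TMM factors (adjusted p 0.201). Without S18 to S20 it was 3.64 (SE 0.45), or 12.5-fold, with an adjusted p of 0.00117. Leaving out S19 or S20 alone was enough for a call, at 2.69 and 2.63. With the header runs as a covariate and all 17 libraries it was also called, at 3.41 (SE 0.61, limma adjusted p 0.00503). The share of atrial tissue or transcripts in the Sham Veh value cannot be told apart from ventricular Nppa in bulk RNA, where more cells of a type and more RNA per cell look alike.

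In Sham 29P, where no library carried the atrial markers, Nppa was 132 CPM in S4, 136 in S14 and 130 in S15. TAC 29P spanned 601 CPM in S1 to 3373 in S3 with a median of 1765, and S18 held 3085. All 6 TAC 29P libraries lay above all 3 Sham 29P libraries. The rise was 3.70 on the log2 scale (SE 0.83), or 13-fold, with a limma adjusted p of 0.00624, and 3.53 (SE 0.40) without S18. TMM factors left it called, at 3.34.

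**Figure D2:**
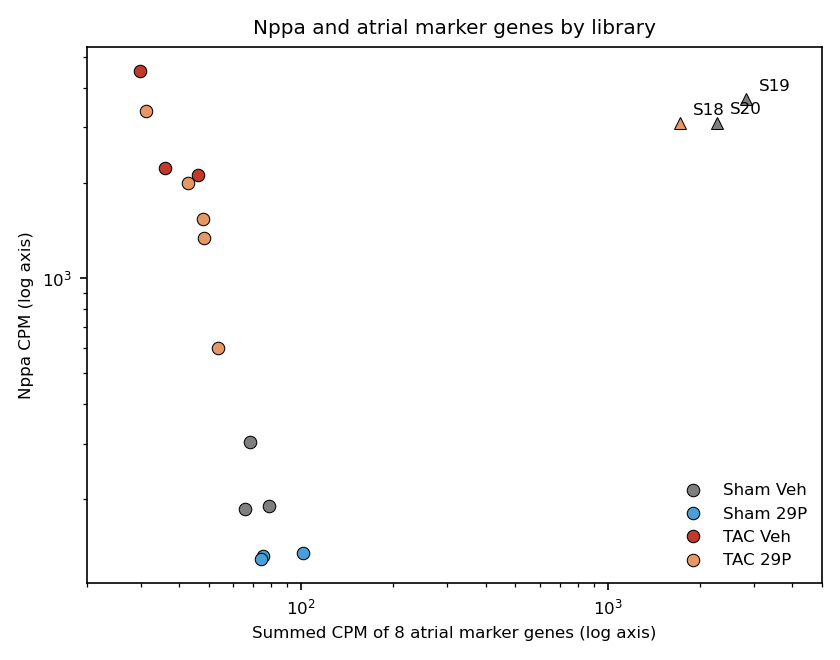
Nppa CPM against the summed CPM of 8 atrial marker genes (both log axes), 1 point a library, coloured by group, with triangles for S18 to S20. These 3 libraries sit at 1720 to 2830 summed CPM, to the right of the other 14 at 29.9 to 101, and among those 14 the Sham libraries are at or below 304 CPM of Nppa and the TAC libraries at or above 601.

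An annotated antisense gene, Gm13054, overlaps Nppa on the minus strand (chr4:148001091-148004014). Its CPM was 2.47% to 4.46% of that of Nppa in every library, from 3.26 CPM in S4 to 139.7 in S19. The strand setting of the counting is not given in the sources used here, so reads of both genes cannot be told apart. Of the other members, Corin, Furin, Npr1, Npr2 and Npr3 also overlap annotated genes, among them antisense genes for Corin, Furin, Npr1 and Npr2, while Nppb overlaps none.

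Corin moved opposite to the peptide genes. In Sham Veh it was 156 CPM in S5, 145 in S6, 124 in S13, 162 in S19 and 159 in S20, and in TAC Veh it was 93.1 CPM in S2, 104 in S12 and 98.8 in S16. No TAC Veh library reached the lowest Sham Veh library. The log2 fold change was -0.59 (SE 0.17), with a limma adjusted p of 0.0224 and an exact permutation p of 0.0179. Sham 29P held 138, 186 and 188 CPM. Of TAC 29P, 5 libraries lay between 94.1 and 116 CPM, below every Sham 29P library, and S18 stood at 183. The fall was -0.55 (SE 0.17, adjusted p 0.0228 in limma) with S18 and -0.68 (SE 0.12, adjusted p 0.00475) without it. Leaving out S2 or S16 ended the call under vehicle, at -0.55 and -0.59, and leaving out S14 or S15 that under 29P, at -0.48 and -0.47. With the run covariate the fall under 29P was -0.52 and was not called (limma adjusted p 0.0669), while that under vehicle was -0.48 and was called (adjusted p 0.0467). On the TMM scale the falls were larger, -0.93 and -0.90. The list of markers of all myocytes (Tnnt2, Actn2, Tnni3, Ryr2) had medians of -0.593 under vehicle and -0.455 under 29P on that scale. Of its 4 genes 2 were called lower in each, beside 9.61% and 10.7% of all genes. On the deposited scale its medians were -0.257, with 1 gene called higher and 1 lower, and -0.0994, with 1 called higher. The part of such a shift in the Corin values was not tested. Over all 14 libraries without S18 to S20, Corin spanned 93.1 to 116 CPM in TAC and 124 to 188 in Sham.

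Furin was not called in any comparison on the deposited scale with all libraries. Sham Veh spanned 22.3 CPM in S6 to 55.5 in S20 and Sham 29P was 22.6 in S14, 41.3 and 55.5, whereas TAC Veh held 50.3, 56.2 and 58.9 CPM and TAC 29P 49.0 to 65.1. The spread was in the Sham libraries, with the lowest values in S6 and S14, the libraries with the highest mitochondrial share and the most genes at 0. The part of these in the Furin values was not tested. The log2 fold changes were 0.51 (SE 0.26, limma adjusted p 0.148) under vehicle and 0.56 (SE 0.25, adjusted p 0.096) under 29P. With TMM factors they were 0.17 and 0.20.

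Npr1 was higher in TAC on the deposited scale. TAC Veh held 24.8, 26.8 and 27.9 CPM, and Sham Veh held 14.2 CPM in S6, 15.5 in S19, 18.1 in S20, 19.3 in S5 and 26.2 in S13, so that S13 lay inside the TAC range. The difference was 0.54 (SE 0.19, limma adjusted p 0.0468) and was not called without S18 to S20, at 0.46 (adjusted p 0.155). Leaving out any of 12 single libraries also ended that call, and leaving out S14 ended the call under 29P described next. Under 29P, TAC spanned 19.8 to 27.7 CPM and Sham held 11.8, 14.2 and 20.8, a difference of 0.68 (SE 0.18, adjusted p 0.0139). The lowest libraries were again S6 in Sham Veh and S14 in Sham 29P. With TMM factors neither was called, at 0.20 and 0.33 with adjusted p of 0.408 and 0.135, and with the run covariate neither was called, at 0.52 and 0.69 with adjusted p of 0.111 and 0.0825. The summed endothelial marker list, from cells in which Npr1 is also expressed, was 413 to 855 CPM in Sham and 823 to 1090 CPM in TAC libraries other than S18 to S20. Fibroblast markers summed to 572 to 733 CPM in Sham among the same libraries, 1200 to 1660 CPM in TAC Veh and a median of 1100 CPM in TAC 29P, and macrophage markers to 46.8 to 113 CPM in Sham and 126 to 211 CPM in TAC. Their part in the Npr1 difference was not tested.

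Npr2 was close to the typical gene in both comparisons. TAC Veh held 43.8, 50.4 and 50.6 CPM against 31.6 to 44.4 in Sham Veh, a difference of 0.36 (SE 0.14, limma adjusted p 0.0607). TAC 29P spanned 42.5 to 51.2 CPM and Sham 29P held 28.1, 37.0 and 42.0. These 2 groups did not overlap, yet the difference of 0.35 (SE 0.13) missed the threshold at an adjusted p of 0.0504. The TMM differences were 0.027 and -0.0016.

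Npr3 followed the atrial-marker libraries rather than the surgery. It was 64.1 CPM in S19, 54.4 in S18 and 30.3 in S20, and between 10.2 and 20.4 CPM in the other 14. With all libraries the differences were -0.34 (SE 0.49) under vehicle and -0.049 (SE 0.48) under 29P. Without S18 to S20, TAC Veh against Sham Veh turned to 0.33 (SE 0.21, limma adjusted p 0.272), and TAC 29P against Sham 29P was -0.37 (SE 0.19, adjusted p 0.14). With TMM factors and without S18 to S20, a combination added after the values had been seen, Npr3 was lower in TAC 29P than in Sham 29P by -0.72 (SE 0.17, adjusted p 0.0177). Under vehicle that same fit gave 0.00042. Endocardial markers summed to 75.6 to 111 CPM in S18 to S20 and 29.3 to 85.3 CPM in the other 14. Adipocyte markers summed to 1.25 to 7.09 CPM and 0.0894 to 2.29 CPM, so both ranges overlapped. The part of atrial, endocardial or adipocyte transcripts in the Npr3 values was not tested.

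**Figure D3:**
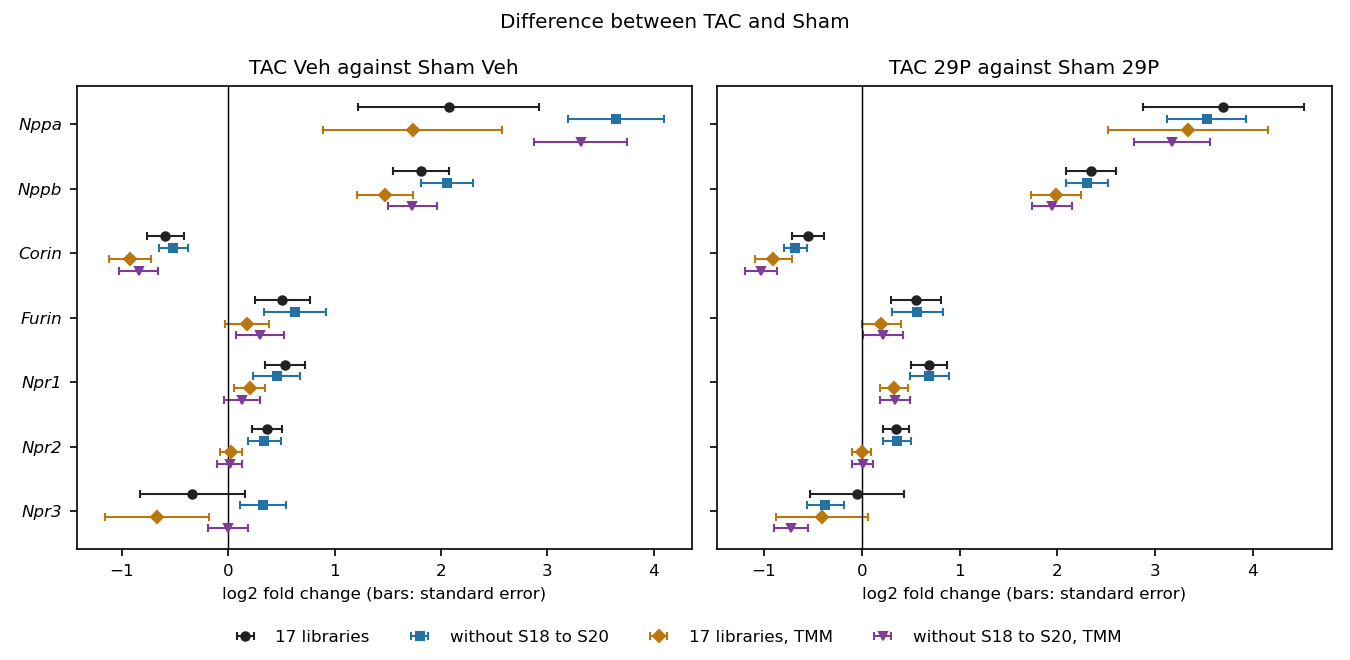
Log2 fold changes of the 7 genes between TAC and Sham under vehicle (left) and under 29P (right), with standard error bars, for 17 libraries and without S18 to S20, each on the deposited CPM scale and with TMM factors. Nppb lies between 1.47 and 2.34 and Corin between -1.03 and -0.51 in every fit, Nppa under vehicle moves from 2.07 to 3.64 without S18 to S20, and the TMM values of Npr2 lie at 0.

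Levels can be compared between genes per length, but only roughly. The length joined the exons of all annotated transcripts, 9178 bases over 8 for Furin against 865 over 1 for Nppa. Genes with several transcripts can thus appear lower than they would by the length of a single transcript. In CPM per kilobase of exon, without S18 to S20, Nppb (265 ± 8.49, SD, n = 3) and Nppa (263 ± 77.1) led in Sham Veh and did not differ beyond their spread. Corin followed at 26.2 ± 2.98 and Npr2 at 8.22 ± 1.32, then Npr1 at 4.16 ± 1.25 and Furin at 4.09 ± 1.55, which overlapped, and Npr3 at 1.5 ± 0.288. In TAC Veh, Nppa was 3410 ± 1550 and Nppb 1150 ± 371, and every library of that group had Nppa above Nppb. Corin was 18.3 ± 1.02, Npr2 10.3 ± 0.837, Furin 6.01 ± 0.479, Npr1 5.54 ± 0.321 and Npr3 1.87 ± 0.249, with Furin and Npr1 overlapping.

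Ratios of members within a library do not depend on its total and are given as descriptions. Without S18 to S20 the geometric mean ratio of Nppb to Nppa CPM was 0.936 in Sham Veh and 0.938 in Sham 29P, against 0.311 in TAC Veh and 0.401 in TAC 29P. The Furin to Corin ratio was 0.252 and 0.22 in the Sham groups, and 0.558 in TAC Veh and 0.524 in TAC 29P. The log2 ranges of these TAC groups, -1.16 to -0.66, lay above those of both Sham groups, whose highest value was -1.32. The Npr3 to Npr1 ratio was 1.22 in Sham 29P and 0.722 in Sham Veh, 0.661 in TAC Veh and 0.583 in TAC 29P. The Npr2 to Npr1 ratio stayed between 1.82 and 2.32 in the 4 groups.

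**Figure D4:**
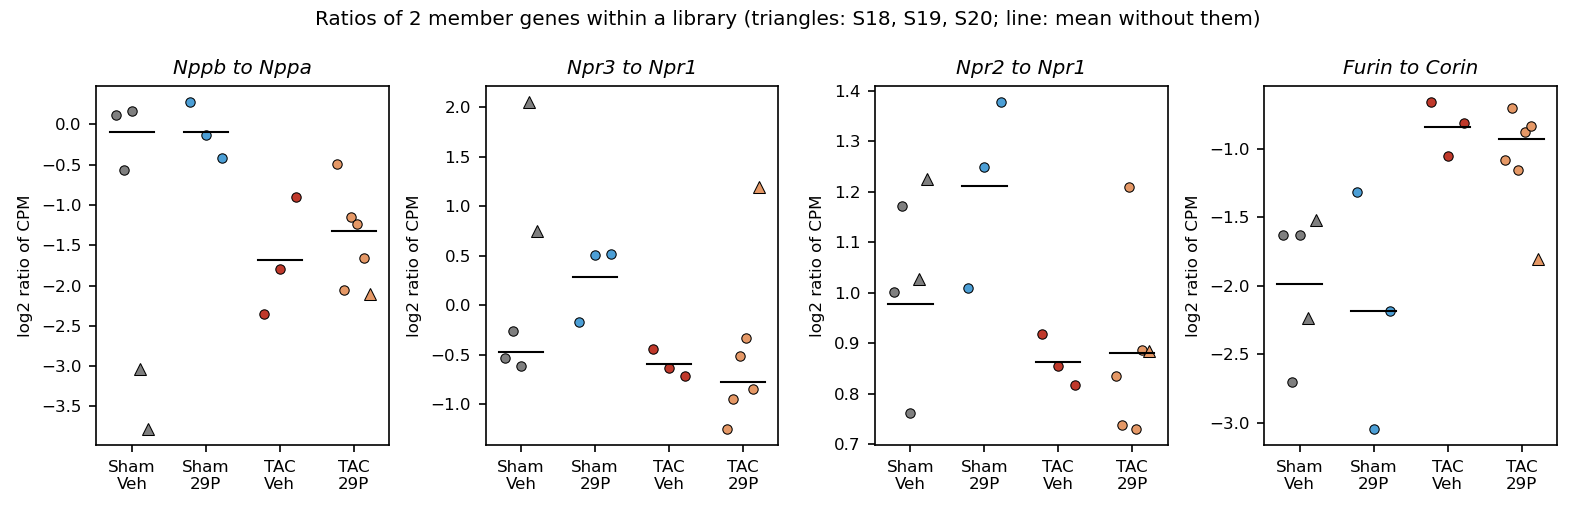
Log2 ratios of the CPM of 2 genes within each library by group (triangles S18 to S20, line at the mean without them). The Nppb to Nppa ratio is lowest in S19 and S20, at -3.04 and below, and the Furin to Corin ratio of S18, -1.81, lies among the Sham values.

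The second question was whether 29P altered these genes, tested on the same libraries. In TAC mice no member was called in TAC 29P against TAC Veh by limma, where 0.0% of all genes were called, and none had an unadjusted p of 0.05 or less, where 1.98% of all genes did. Nppa was 601 to 3373 CPM with 29P and 2121 to 4498 CPM with vehicle. Of the 6 TAC 29P libraries, 4 lay below all 3 TAC Veh libraries. The log2 difference was -0.69 (SE 0.83) with all libraries and -0.86 (SE 0.40, unadjusted limma p 0.0512) without S18. Nppb differed by -0.46 (SE 0.26) and by -0.49 (SE 0.22, unadjusted limma p 0.0392) without S18, where 3.07% of all genes passed the unadjusted threshold and 0.0% the adjusted one. Its exact permutation p was 0.143 with all libraries and 0.179 without S18.

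Corin differed by 0.23 (SE 0.17) between TAC 29P and TAC Veh, and by 0.099 without S18. Furin, Npr1, Npr2 and Npr3 differed by -0.0047, -0.12, -0.098 and 0.032. A p above the threshold does not show that the groups were alike. With the header runs as a covariate, Nppa was -1.56 (SE 0.61, unadjusted limma p 0.0228) and Nppb -0.63 (SE 0.29, unadjusted p 0.0462), both with an adjusted p of 1.0. In the run S1 to S11, the only TAC Veh library, S2, had more Nppa than each of the 5 TAC 29P libraries.

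In Sham mice, 0 of the 7 members were called for 29P against vehicle, where limma called 0.00617% of all genes. Nppa and Nppb had an unadjusted p of 0.05 or less, where 7.49% of all genes did. All 3 Sham 29P libraries lay below all 5 Sham Veh libraries for both, and the share of all genes that did so was not counted. The log2 difference of Nppb was -0.99 (SE 0.26, unadjusted limma p 0.00158, adjusted p 0.651), with an exact permutation p of 0.0179. Without S19 and S20 it was -0.74 (SE 0.24, unadjusted p 0.00859, adjusted p 0.914), and the groups of 3 still did not overlap, for which the smallest exact permutation p is 0.1. Nppa was -2.31 (SE 0.85, unadjusted limma p 0.0145) with S19 and S20 and -0.74 (SE 0.45, unadjusted p 0.122) without them. Under that exclusion 0.0% of all genes were called and 3.81% had an unadjusted p of 0.05 or less. The Npr3 difference was -0.25 (SE 0.49) with all libraries and 0.41 (SE 0.21) without S19 and S20.

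Whether 29P acted differently in TAC and in Sham was tested as an interaction. No member was called by limma and none had an unadjusted p of 0.05 or less, where 0.00617% and 2.84% of all genes did. The Nppa interaction was 1.62 (SE 1.19) with all libraries and -0.12 (SE 0.61) without S18 to S20. Without those libraries Npr3 gave -0.70 (SE 0.29, unadjusted limma p 0.0282, adjusted p 0.962), where 3.69% of all genes passed the unadjusted threshold and 0.0% the adjusted one.

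**Figure D5:**
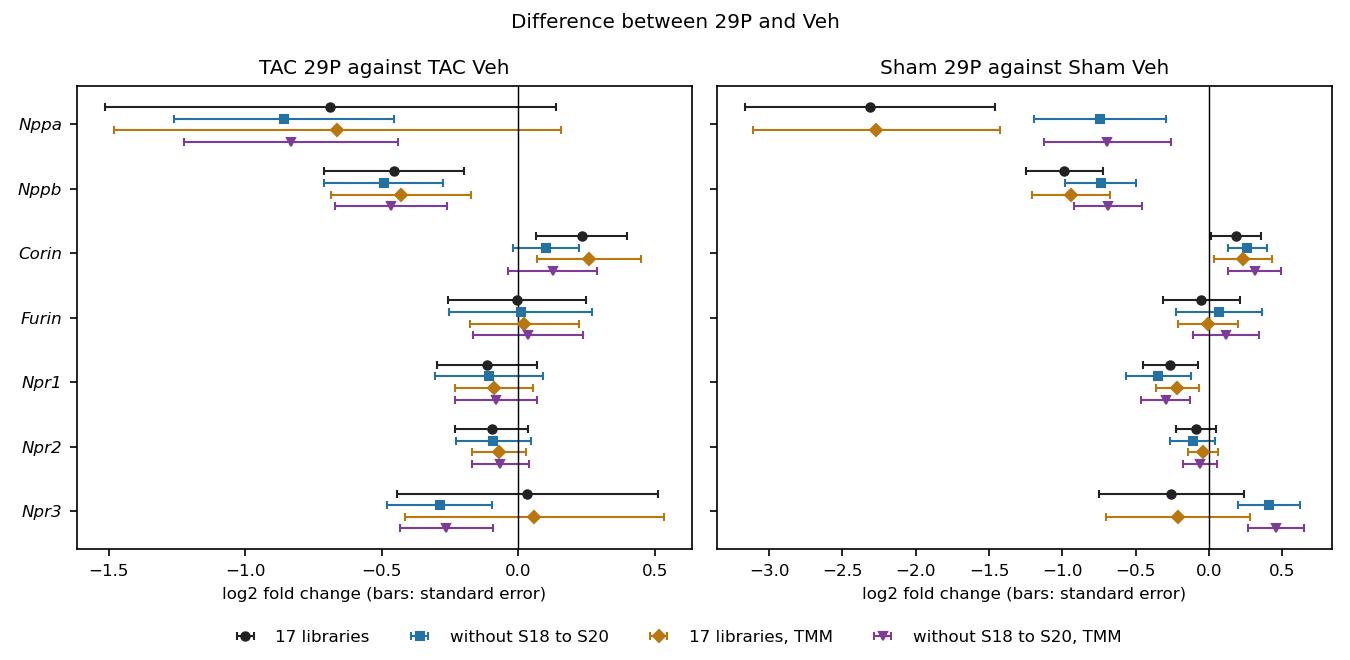
Log2 fold changes of the 7 genes between 29P and Veh in TAC (left) and Sham (right), with standard error bars, for the same 4 fits. Nppa in Sham moves from -2.31 to -0.74 without S19 and S20, Nppb lies below 0 in every fit, and Furin in Sham lies between -0.050 and 0.12.

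The wider pathway was counted in 4 lists. Of 8 other ligands, proteases and clearance genes, 6 were tested, and Nppc and Ostn were not analysed here. TAC Veh against Sham Veh called 2 higher and 1 lower, beside 24.4% of all genes, with a list median of 0.54 beside 0.346 for all genes. Pcsk7, a proprotein convertase, was 0.64 higher (limma adjusted p 0.0193) and Pcsk5, a convertase of the same family, 0.90 higher (adjusted p 0.0399), but neither was called without S18 to S20 or with TMM factors. Mme, which encodes the natriuretic peptide-degrading enzyme neprilysin, was lower by -0.96 (SE 0.22, limma adjusted p 0.00823), by -1.11 without S18 to S20 and by -1.29 with TMM factors. Under 29P, Mme fell by 0.63 (adjusted p 0.0355 in limma) in TAC against Sham. Between TAC 29P and TAC Veh it differed by 0.68 (SE 0.21, unadjusted limma p 0.00532, adjusted p 1.0).

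Of 18 cyclic GMP effectors and phosphodiesterases, 7 were called higher and 1 lower in TAC Veh against Sham Veh, beside 24.4% of all genes, with a median of 0.32 beside 0.346. Prkg1, the cyclic GMP-dependent protein kinase, was 0.85 higher (limma adjusted p 0.00376), and the phosphodiesterases Pde1c and Pde10a were 0.68 and 1.12 higher. Rgs2, a regulator of G protein signalling that the kinase activates, was lower by -0.99 (adjusted p 0.0172 in limma), and by -0.61 without S18 to S20, where it was not called (adjusted p 0.0801). With TMM factors, where 9.61% of all genes were called, 1 gene of the list, Pde10a, was called higher and 4 lower, Rgs2 (-1.33) among them. Under 29P, 7 were called higher and 1 lower beside 32.5% of all genes, with a median of 0.45 beside 0.373, and Trpc6, Gucy1b1 and, as the lower call, Pln stood in place of Pde1c, Pde5a and Rgs2. With TMM factors that became 2 higher and 3 lower, beside 10.7% of all genes. Rgs2 and Pln were both called on that scale, under vehicle and under 29P alike. Under 29P both were also called without S18 to S20, where 6 genes of the list were called higher and 2 lower, beside 32.4% of all genes.

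Of 14 transcription factors, 2 were called higher and 1 lower under vehicle, beside 24.4% of all genes, with a median of 0.40 beside 0.346. Tbx20 and Tead1, both expressed in cardiomyocytes, were 0.70 and 0.63 higher, and Tbx5 was lower by -1.15 (limma adjusted p 0.0184). Without S18 to S20 only Tbx20 of these 3 stayed called, at 0.80, and with TMM factors only Tbx5, at -1.49. Of 7 further genes of the fetal programme, 4 were called higher and none lower, beside 24.4% of all genes, with a median of 1.97. An unadjusted limma p of 0.05 or less was reached by 5 of the 7, beside 40.9% of all genes. Myh7, the slow myosin heavy chain, rose by 4.08, the skeletal actin gene Acta1 by 3.72 and the intercalated disc gene Xirp2 by 2.45. These 3 were called with and without S18 to S20 and with TMM factors. Atp2a2, the calcium pump of the sarcoplasmic reticulum, was lower by -0.39 and not called (limma adjusted p 0.0645), and with TMM factors it was called at -0.72, as it was under 29P at -0.71. No gene of any of the 4 lists was called by limma for 29P against Veh in TAC or Sham, while 6 and 3 of the 45 tested had an unadjusted p of 0.05 or less, beside 1.98% and 7.49% of all genes.

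Genes within 100 kb of the Nppb and Nppa pair were examined as well. In TAC Veh against Sham Veh, Plod1 (0.73), Clcn6 (0.58) and Agtrap (0.38) were called higher with all libraries, and none of these was called without S18 to S20 or with TMM factors. Mfn2 (0.21), 2510039O18Rik (0.53) and the pseudogene Chchd2-ps (0.79) were not called, and Draxin did not pass the filter on low values. The rises of Nppb and of Nppa without S18 to S20, 2.06 and 3.64, were thus not matched by a called rise of any of these flanking genes in the same fit. Gm13054 was called (3.58), but its reads cannot be told apart from those of Nppa.

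The genes most like each member were ranked over 14054 genes by the correlation of log2 values after subtracting the 4 group means, which is a description across libraries that share depth and tissue. For Nppa over 17 libraries they were Gm13054 (r = 0.991) and Gng2 (0.919), and without S18 to S20 Gm13054 (0.96) and Snap91 (0.907). Nppb was followed by Atp10a (0.869) and Sec61b (0.864), and over the 14 libraries by Serp1 (0.925) and Crk (0.917). Corin paired with Dnm1l (0.871) and Mbnl2 (0.868), Npr3 with Enpp6 (0.943) and Rxfp1 (0.934). Furin was nearest to Ptpn23 and Fbxw8 (both 0.97), Npr1 to Zbtb48 (0.927) and Zfp319 (0.922), and Npr2 to Phldb1 (0.955) and Fam189a2 (0.952). Without S18 to S20 none of these pairs except Nppa with Gm13054 was among the first 2.

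Across libraries 6 relations were computed, 3 in Sham and 3 in TAC, on log2 CPM. Nppa and Nppb had r = 0.782 (exact permutation p = 0.00784, adjusted 0.047) and rho = 0.952 (p = 0.00114, adjusted 0.00685) over the 8 Sham libraries. These pool vehicle and 29P, and all 3 Sham 29P libraries lay below all 5 Sham Veh libraries for both genes, so that r includes the difference between the groups. Without S19 and S20, the 2 farthest from the Nppa median, r was 0.74 (exact permutation p = 0.0986). Over the 9 TAC libraries r was 0.734 (exact permutation p = 0.0291, adjusted 0.0592) and rho 0.833 (p = 0.00827, adjusted 0.0248). Without S1 and S2, which held the lowest and the highest Nppa of the TAC libraries, r fell to 0.414 over 7 libraries. The size of r over all TAC libraries thus depended on those 2. Within the TAC libraries of the run S1 to S11 r was 0.987 over 6 libraries and 0.939 over 4 without S1 and S2. The TAC relations, here and below, likewise pool vehicle and 29P, so that r can include a difference between those groups. The Sham relation of Nppa to the atrial list (r = 0.969, exact permutation p = 0.0296, adjusted 0.0592, rho = 0.5) rests on S19 and S20, since r over the other 6 was -0.51.

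In TAC the relation of Nppa to the atrial list was r = 0.127 (exact permutation p = 0.665, rho = -0.633, p = 0.076) over 9 libraries. Without S18 it was -0.897 (exact permutation p = 0.000372, adjusted 0.00223, rho = -0.976) over 8 libraries, in which the list consisted mainly of Kcnj3 and Stard10. Without S1 and S2 as well it stayed at -0.897, and in the run S1 to S11 it was -0.941. Nppb and Npr3 gave r = 0.618 in Sham (exact permutation p = 0.122, adjusted 0.182; rho = 0.357) and 0.221 in TAC (p = 0.513, adjusted 0.615; rho = 0.333), and neither passed.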

How the data were processed

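Polyadenylated RNA of the left ventricular apex was sequenced in 17 libraries, 1 a mouse, prepared with NEBNext Ultra II. In Partek Flow the authors ran STAR 2.3.7 against mm10 and summed reads over GENCODE genes. They deposited CPM values with 0.0001 added to each. The library preparation included a strand specificity reagent. The counter, its strand setting and any filter on genes are not given in the sources used here. What 1 read was worth was read from the most frequent low value of each library, giving 14200000 to 23800000 reads. Only 79.5% to 81.9% of values under 40 reads were whole reads within 0.05, so no count test was run.

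Groups came from the labels, where vehicle is called saline. Log2 of the deposited values was tested with limma 3.58.1 (lmFit, contrasts.fit, eBayes with trend) on 1 mean per group over all 17 libraries, for 16218 genes with at least 0.5 CPM in at least 3 libraries. A gene was called at a Benjamini-Hochberg adjusted p of 0.05 or less over all genes tested. The test was checked on simulated data. Exact two-sided permutation tests of single members ran over the libraries of the groups compared, in 28 comparisons, and their p-values are unadjusted. Alternatives were other added constants, other filters, TMM and median-of-ratios factors, a total without mitochondrial transcripts, only the groups compared, a covariate for runs of animal numbers in the headers, eBayes without trend, S18 to S20 left out and each library left out. TMM factors without S18 to S20 were added after the data had been seen.

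The members, the lists and the neighbour window of 100 kb were chosen with earlier results of these data known. Named in the text are all 7 members, up to 3 called genes per list and direction with the smallest adjusted p in TAC Veh against Sham Veh, genes called for 29P, neighbours within the window (1 item is not reported here) and the 2 genes most like each member, and Mme under 29P, Gm13054, Atp2a2 and the cyclic GMP genes that differ under 29P were chosen after their values were seen. Positions are GENCODE vM21, whose starts match the file for the 7 members, and promoters are RefSeq GRCm38.p6.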

Additional observations from a re-analysis of the deposited data

Results flagged for a closer look

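Among 22 sets of 4 or more libraries examined (7 genes and 4 ratios in Sham Veh and TAC 29P), 4 held a library whose gap to the next exceeded the Dixon limit, and chance alone flags about 1 set in 20. Nppb in S19 was 8.80 on the log2 CPM scale, above the other Sham Veh libraries. Corin in S18 was 7.52 on the same scale, above the other TAC 29P libraries. The log2 ratio of Npr3 to Npr1 in S18 was 1.19, above the other TAC 29P libraries. These 3 values came from libraries with atrial marker transcripts, and the part of those transcripts was not tested. The log2 ratio of Npr2 to Npr1 in S8 was 1.21, above the other TAC 29P libraries.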

How the results depend on the processing

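Nppb and Corin kept their direction in both comparisons of TAC with Sham under every alternative run, and so did Nppa. Members called in TAC Veh against Sham Veh were 5 at an unadjusted p, where 40.9% of all genes passed, and 1 to 4 with single libraries left out. In those fits 2.97% (without S2) to 31.9% (without S14) of all genes were called. In TAC 29P against Sham 29P the called members were 6 at an unadjusted p, where 45.5% of all genes passed. They were 2 with the run covariate (Nppa and Nppb), where 4.35% of all genes were called, and 2 to 6 with single libraries left out. In those fits 6.69% (without S14) to 41.3% (without S4, the fit with 6 members called) of all genes were called. In Sham 29P against Sham Veh 2 members passed at an unadjusted p, where 7.49% of all genes did. The Npr1 call under vehicle was lost on leaving out any of 12 single libraries (its log2 fold change then lay between 0.45 and 0.58), the Corin call under vehicle without S2 (-0.55) or S16 (-0.59), and under 29P without S14 (-0.48) or S15 (-0.47), and Npr1 under 29P without S14 (0.50). Nppa under vehicle was called without S19 (2.69) or without S20 (2.63). Furin under 29P was called without S4 (0.84) or S6 (0.56). Npr2 under vehicle was called without S4, S14 (0.36) or S13 (0.43), and under 29P without S4 (0.48), S6, S13 or S19 (0.35). The relation of Nppa with Nppb in Sham was 0.74 without S18 to S20 and no longer passed. The relation of Nppa with the atrial list turned to -0.51 in Sham and -0.897 in TAC without them, and to -0.941 in the run S1 to S11, and that of Nppb with Npr3 in Sham turned to -0.703. Depth of 14200000 to 23800000 reads did not keep any member from the test, and the small groups limit all comparisons.

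Directions turned as follows, and the cause was not tested. Under the run covariate, without S18 to S20, and without them on the TMM scale, Npr3 became 0.36, 0.33 and 0.00042 in TAC Veh against Sham Veh, -0.23, -0.29 and -0.26 in TAC 29P against TAC Veh, and 0.45, 0.41 and 0.46 in Sham 29P against Sham Veh. In the same order, the 29P effect in TAC minus in Sham became -0.58, -0.12 and -0.14 for Nppa, -0.042, -0.16 and -0.19 for Corin, -0.21, -0.060 and -0.084 for Furin and -0.67, -0.70 and -0.72 for Npr3, and Npr2 became 0.019 without S18 to S20. Furin in Sham 29P against Sham Veh became 0.045, 0.068 and 0.12 in that order and 0.0048 with median-of-ratios factors. Furin in TAC 29P against TAC Veh became 0.021 with TMM factors, 0.016 with median-of-ratios factors, 0.019 without mitochondrial transcripts in the total, 0.0083 without S18 to S20 and 0.034 with TMM factors as well. Npr2 in TAC 29P against Sham 29P became -0.0016 with TMM factors and -0.0054 with median-of-ratios factors.

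With single libraries left out, values turned within these ranges. The 29P effect in TAC minus in Sham ran from -0.10 to 0.12 for Corin, -0.31 to 0.33 for Furin, -0.034 to 0.37 for Npr1, -0.17 to 0.12 for Npr2 and -0.097 to 0.51 for Npr3. Sham 29P against Sham Veh ran from -0.34 to 0.31 for Furin, -0.21 to 0.075 for Npr2 and -0.48 to 0.13 for Npr3. Npr3 ran from -0.37 to 0.11 in TAC 29P against Sham 29P, -0.29 to 0.20 in TAC 29P against TAC Veh and -0.56 to 0.048 in TAC Veh against Sham Veh, and Furin from -0.070 to 0.044 in TAC 29P against TAC Veh. No paired analysis was possible because no replicate number occurs in more than 1 group.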
